A study of Mus musculus with 6 samples.

Results

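The genes described here are 46 mouse interferon-stimulated genes, a set of transcripts that cells switch on when they receive type I or type II interferon. They were chosen by name, as genes known to be induced by interferons, but with earlier results of these data already known. They were measured in skin wounds taken 8 days after injury. Of the 46 genes, 45 had a named probe on the bead array and Ifi44 had none. A probe was used if at least 2 of the 6 arrays gave it a detection p-value, the chance of such a signal from negative control beads, below 0.01. This left 39 of the 46 genes, out of 10266 genes in all, each represented by its brightest probe.

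The study asked how β-catenin, the Wnt pathway's transcriptional co-activator, changes gene expression in healing wounds. Each array held RNA of a whole dorsal wound through the full thickness of the skin of a C57/BL6 mouse, so the values are sums over all cells of the wound, and fewer cells of a type and less RNA per cell cannot be told apart. In the first system the animals were 2 months old and carried β-Catenin flox/flox alleles around exon 3. Their wounds received either an adenovirus with Cre, which leaves a stabilized β-catenin (stabilized, 1 array), or another that carried GFP, green fluorescent protein (GFP, 1 array). In the second system the animals carried β-Catenin flox/flox alleles around exons 2-6 and were treated with tamoxifen. There, the knockdown wounds came from animals of 5 months with Cre-Esr1 (2 arrays) and the tamoxifen control wounds from animals of 4 months without it (2 arrays). All 6 arrays therefore come from floxed animals, and each is labelled as 1 biological replicate. The sources used here do not give which cells the virus entered or which promoter drives Cre-Esr1. No wound without either agent and no uninjured skin was analysed here.

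Interferons act on cell surface receptors whose Janus kinases phosphorylate STAT proteins. Type I interferons, which most cells make when they sense viral nucleic acid, lead to a complex with Stat2 and Irf9 that binds the interferon-stimulated response element. Type II interferon, or interferon gamma, comes mainly from T cells and natural killer cells and acts through the gamma-activated site. The induced proteins block viruses, cut and present antigens, destroy pathogens inside cells and draw in lymphocytes.

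Of the 45281 probes, 15883 to 16681 passed the detection threshold on each array. The GFP array had the fewest, and its mean intensity was 544.4, against 648.7 to 714.8 on the other 5 arrays before normalization. The brightest Ctnnb1 probe, for the gene of β-catenin, stood at a log2 signal of 11.74 and 11.86 in the knockdown wounds, against 11.78 and 12.09 in the tamoxifen controls. It stood at 11.50 in the stabilized wound and 11.58 in the GFP wound. Where the probes lie relative to the deleted exons was not examined, so these values check neither label. Virus against tamoxifen, the floxed exons, and an age of 2 months against 4 or 5 months all divide the 6 arrays in the same way. Within the tamoxifen arrays, age also separates knockdown from control. Neither slide nor day of scanning was among the labels.

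The clearest difference among the interferon-stimulated genes lay between the adenovirus wounds and the tamoxifen wounds. On the 2 adenovirus arrays 38 of the 39 genes were higher on average than on the 4 tamoxifen arrays, with a median log2 difference of 1.24. Over all 10266 genes, 47.9% were higher and the median was -0.01. At an adjusted p under 0.05 (limma over all genes, Benjamini-Hochberg), 21 of the 39 genes were called higher and 0 were called lower, against 0.994% of all genes called higher, 1.16% called lower and 2.15% called in either direction. For 37 of the 39 genes both adenovirus arrays lay above all 4 tamoxifen arrays, against 13.3% of all genes. At least a 2-fold difference was seen for 25 of them, against 2.42% of all genes.

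Because the filter let in probes detected on 2 arrays only, Mx1 and Oas3 entered through the adenovirus arrays alone, and counts over the 39 genes lean that way. Of the 37 genes detected on all 6 arrays, 36 were higher in the adenovirus wounds, 20 were called higher, and the median log2 difference was again 1.24. Of all genes detected on all 6 arrays, 1.62% were called in either direction. Without any filter, 43 of 45 genes were higher and 15 were called higher, with a median of 1.09, while 0.861% of all genes were called in either direction. The control groups of both systems differed in the same direction. The GFP wound alone lay above the mean of the tamoxifen controls for 39 of 39 genes, with a median of 0.97, while 47% of all genes were higher in that comparison. This count holds for the normalized values. In the deposited intensities Ddx58 was lower on the GFP array, at 269.1, than on the controls, at 295.2 and 297.2. Irf1, Irf9 and Psmb8 lay between the 2 controls, and the remaining genes lay above both. Virus against tamoxifen, the floxed exons and the age of the animals cannot be told apart as sources of this difference.

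**Figure D1:**
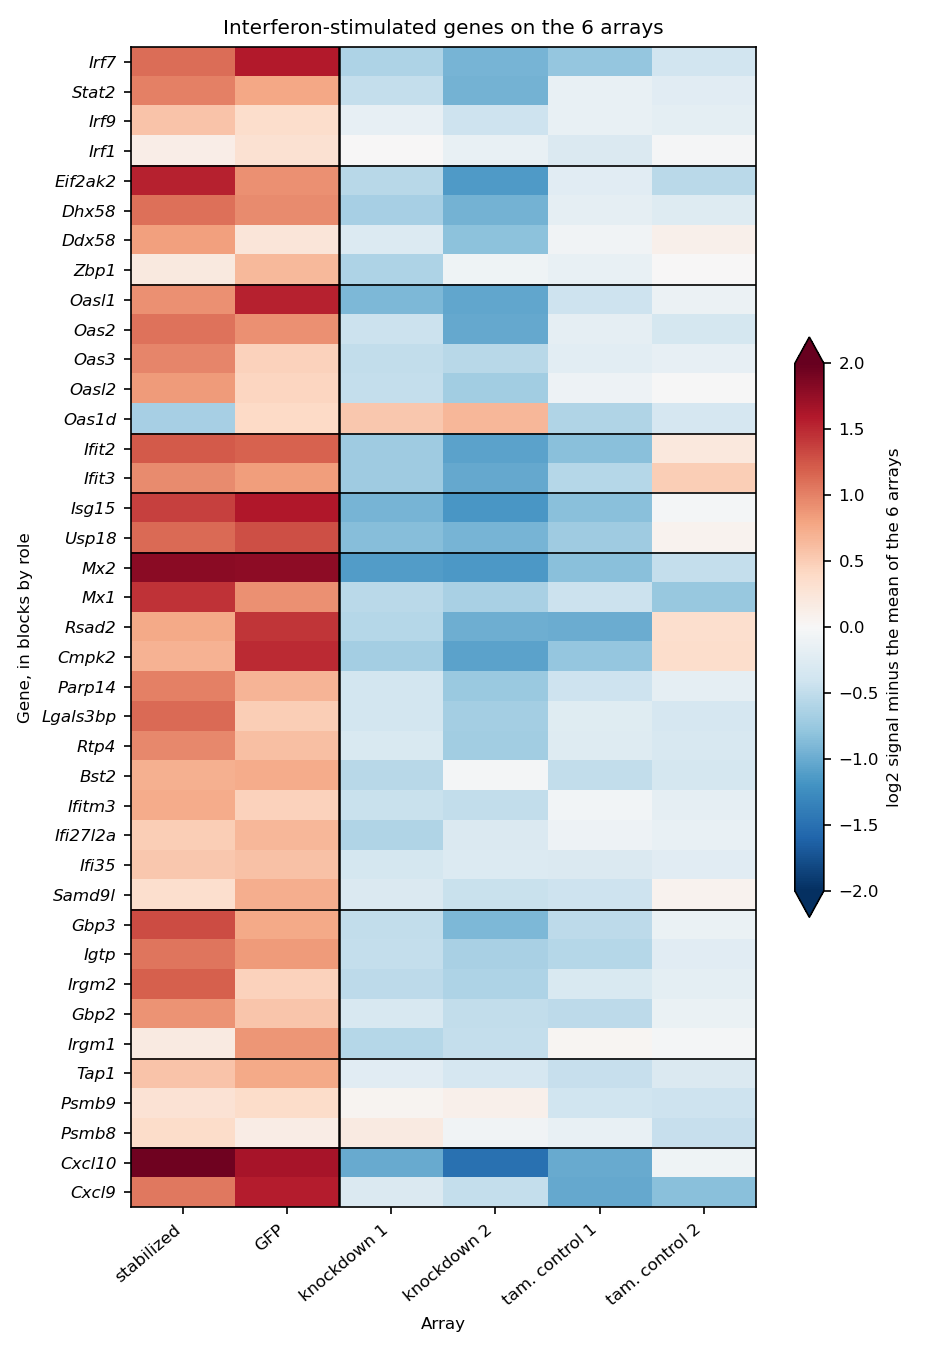
Log2 signal of the 39 interferon-stimulated genes on the 6 arrays, as the difference from each gene's mean over the 6 arrays (colour, from -2 to 2). Columns are the stabilized and GFP arrays, then the knockdown and tamoxifen control arrays; rows are genes in blocks by role. The median over the genes was 0.95 and 0.75 on the adenovirus arrays and between -0.68 and -0.19 on the tamoxifen arrays, and Oas1d departs from the other rows.

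Among the transcription factors, Irf7 had the largest difference. Irf7, a factor that is induced by interferon and in turn drives type I interferon genes, had log2 signals of 10.26 (stabilized) and 10.72 (GFP) in the adenovirus wounds, against 8.52, 8.21, 8.36 and 8.75 in the tamoxifen wounds. The groups did not overlap, and the difference was 2.03 ± 0.20 (SE), or 4.08-fold (limma adjusted p = 0.00717). Stat2, a subunit of the complex that type I interferon activates, was also called higher, by 1.34 ± 0.24 (adjusted p = 0.0485). Irf9, the DNA-binding subunit of that complex, differed by 0.69 (adjusted p = 0.0613). Irf1, a factor best known as a target of interferon gamma, had the smallest positive difference of the 39 genes. Its log2 signals were 11.91 and 12.08 in the adenovirus wounds and 11.79, 11.63, 11.49 and 11.76 in the tamoxifen wounds, a difference of 0.33 (adjusted p = 0.266).

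The sensors of viral RNA and DNA were all higher, and 2 of the 4 measured were called. Eif2ak2, the kinase that stops translation when it binds double-stranded RNA, stood at 12.39 and 11.76 in the adenovirus wounds, against 10.28, 9.70, 10.62 and 10.31 in the tamoxifen wounds. The difference was 1.84 ± 0.29, or 3.59-fold (adjusted p = 0.0336). Dhx58, a regulator of RNA sensing, was higher by 1.53 ± 0.24 (adjusted p = 0.0325). Ddx58, the RNA sensor RIG-I, and Zbp1, a sensor of Z-form nucleic acid, differed by 0.79 and 0.64 and were not called. The oligoadenylate synthetase family, whose enzymes make the signal that turns on RNase L, was uneven. Oasl1 and Oas2 were called higher, 3.59-fold and 2.82-fold. Oasl2 differed by 0.96 (adjusted p = 0.103). Oas3 was not detected on any tamoxifen array, so its signal in the adenovirus wounds was at least 1.38-fold higher (adjusted p = 0.0528). The fifth, Oas1d, was the 1 gene of the 39 with a negative difference, of -0.20 ± 0.46, and its levels are described with the β-catenin comparisons.

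Genes of the ISG15 system had some of the largest differences. Isg15, a ubiquitin-like protein joined to other proteins during the interferon response, had deposited intensities of 11530 and 9799 in the adenovirus wounds, against 2458 and 2006 in the knockdown wounds and 2523 and 3963 in the tamoxifen controls. On the log2 scale after normalization its values were 13.37 and 13.60 against 11.09, 10.84, 11.18 and 11.98. Both adenovirus arrays lay well above the other 4, and the difference was 2.22 ± 0.31, or 4.65-fold (adjusted p = 0.0251). Usp18, the protease that removes Isg15 and also dampens the type I receptor, was 3.54-fold higher (adjusted p = 0.0344). Ifit2 and Ifit3, of a family that binds foreign RNA, differed by 1.80 and 1.34 but were not called (adjusted p = 0.0573 and 0.149). The log2 signals of Ifit3 were 12.57 and 12.47 in the adenovirus wounds, and 10.92, 10.60, 11.06 and 12.12 in the tamoxifen wounds, where the second control lay close to the adenovirus arrays.

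Mx2, a gene of the dynamin-like GTPases, had the smallest p of the 39 genes. Its log2 signals were 9.19 and 9.18 in the adenovirus wounds, against 6.28, 6.25, 6.55 and 6.92 in the tamoxifen wounds. The 2 adenovirus arrays were nearly equal and far above the rest, and the difference was 2.68 ± 0.21, or 6.43-fold (adjusted p = 0.0027). Mx1, its relative and neighbour on chromosome 16, was detected on the 2 adenovirus arrays only, at 7.56 and 7.04, so it was at least 2.44-fold higher. Its adjusted p, 0.00788, sets these values against signals under the detection threshold, and the filter kept Mx1 because of the arrays where it is high. Of the other antiviral and induced genes, Parp14, Rtp4, Lgals3bp, Bst2 and Ifi35 were called higher, by 0.85 to 1.27. Bst2 is a membrane protein that tethers budding virus. Ifi35 had the smallest of these differences, with 9.90 and 9.96 in the adenovirus wounds and 9.02, 9.09, 9.08 and 9.15 in the tamoxifen wounds (adjusted p = 0.0185). Its spread within each system was small. Rsad2, which encodes the antiviral enzyme viperin, and its neighbour on chromosome 12 Cmpk2, a nucleotide kinase, had differences of 1.65 and 1.63 that were not called (adjusted p = 0.106 and 0.116). Ifitm3, which blocks virus entry from endosomes, stood at 15.28 and 14.99 against 14.09, 14.05, 14.48 and 14.35 (adjusted p = 0.0589).

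The genes best known as targets of interferon gamma shared the difference. Of 10 measured, 10 were higher in the adenovirus wounds, with a median of 1.04, and 5 were called. Of 27 genes best known for type I interferon, 26 were higher, with a median of 1.34, and 14 were called. Some genes were put in neither class, and the classes were not tested against each other. Igtp, an immunity-related GTPase that acts on vacuoles holding pathogens, had 11.33 and 11.11 in the adenovirus wounds, against 9.77, 9.61, 9.68 and 10.03 in the tamoxifen wounds. That is a difference of 1.45 ± 0.16, or 2.73-fold (adjusted p = 0.00997). The guanylate-binding proteins Gbp3 and Gbp2, which attack such vacuoles as well, were called higher by 1.54 and 1.09. Irgm2 and Irgm1, regulators of the same GTPases, differed by 1.24 and 0.80 and were not called.

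The genes of peptide processing for MHC class I had the smallest median difference of any role, 0.49. Tap1, a subunit of the peptide transporter, was called higher, with 9.39 and 9.58 in the adenovirus wounds against 8.60, 8.48, 8.36 and 8.53 in the tamoxifen wounds (difference 0.99 ± 0.13, adjusted p = 0.0185). Psmb9 and Psmb8, subunits of the immunoproteasome, differed by 0.49 and 0.38 and were not called. The chemokines, which draw in T cells, had the largest, 2.33. Cxcl10 stood at 10.38 and 10.08 in the adenovirus wounds, against 7.43, 6.94, 7.43 and 8.35 in the tamoxifen wounds, 6.45-fold apart (adjusted p = 0.0234). Cxcl9 stood at 10.97 and 11.50 in the adenovirus wounds, against 9.63 and 9.45 in the knockdown wounds and 8.90 and 9.08 in the tamoxifen controls. Its difference was 1.97 ± 0.26, or 3.92-fold (adjusted p = 0.0185).

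**Figure D2:**
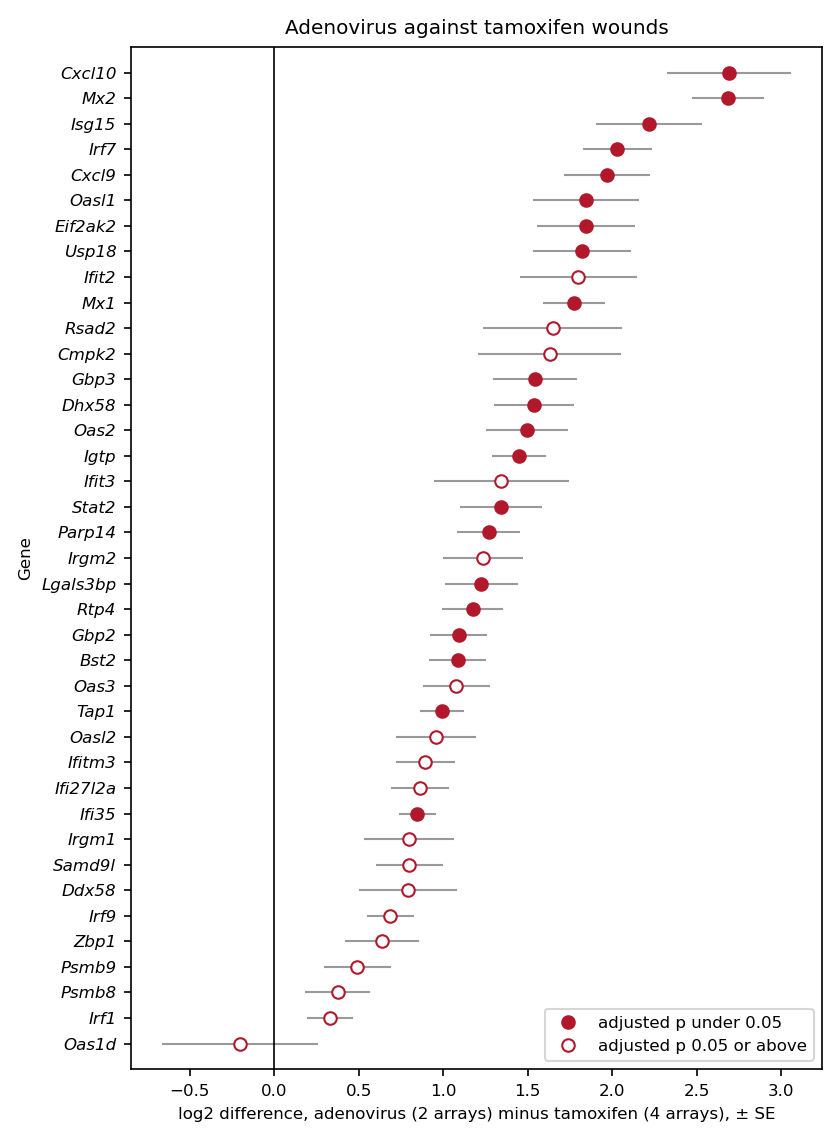
Log2 difference between the 2 adenovirus and 4 tamoxifen arrays for each of the 39 genes, with bars of 1 standard error. Filled points are the 21 genes with an adjusted p under 0.05; differences run from -0.20 for Oas1d to 2.69 for Cxcl10, and the 38 other genes lie right of 0.

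The number called depended on which array was left out, while the median moved little. Each array was left out in turn. This gave 22 called genes without tamoxifen control 1, 9 without tamoxifen control 2, 4 without knockdown 1 and 11 without knockdown 2. The share of all genes called in either direction moved as well, at 4.09%, 0.74%, 0.672% and 1.05% in the same order. Without the stabilized array the median was 1.11 and without the GFP array 1.35, and over the 6 fits it stayed between these values. Of the 21 genes called with all arrays, 3 were called in all 6 of these fits, namely Mx2, Irf7 and Mx1, and 2 of these, Mx2 and Irf7, were detected on all 6 arrays. Of 16 further kept probes for 12 of the genes, 16 had the same sign as the probe used. Some of these did not keep the 2 systems apart, among them probes of Zbp1, Ifit3, Irf9 and Irf1. The second Zbp1 probe stood at 9.66 in the stabilized wound. In the GFP wound it stood at 5.70, below all 4 tamoxifen arrays (5.74 to 7.13).

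Sequences before the start of transcription were read for those genes with a window in RefSeq (GRCm38.p6), 34 of the 46, with 38 windows. The 250 bases before each start were searched for GAAANNGAAA, a short form of the interferon-stimulated response element, on both strands (TTTCNNTTTC on the opposite one), and for TTCNNNGAA, the core of the gamma-activated site, which reads the same on both strands and can overlap the first motif. GAAANNGAAA stood in 14 of the 38 windows (36.8%), against 2.98% of all 32851 windows. TTCNNNGAA stood in 8 of the 38 (21.1%), against 7.02% of all windows. The adenovirus difference was 0.80 to 2.69 (median 1.34) for the 12 measured genes with GAAANNGAAA and 0.33 to 2.03 (median 0.96) for the 17 without it in these windows. For TTCNNNGAA the medians were 1.24 for the 7 measured genes with it and 1.16 for the 22 without it. A match to these letters is not a binding site shown to be used.

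Stretches from 8 of the windows are given because they show the motifs at genes of different roles: the 6 with the largest adenovirus difference among those holding GAAANNGAAA, then Irgm2 beside its relative Igtp, and Irf1, which holds the other motif alone. Each is written 5′ to 3′ on the strand of its gene, with the matches in capitals.
Cxcl10, chr5:92349073-92349122, minus strand: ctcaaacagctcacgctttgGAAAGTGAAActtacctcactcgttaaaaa
Isg15, chr4:156200855-156200916, minus strand: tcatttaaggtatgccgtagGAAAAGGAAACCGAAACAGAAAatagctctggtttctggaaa
Rsad2, chr12:26456543-26456592, minus strand: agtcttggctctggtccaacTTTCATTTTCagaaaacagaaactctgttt
Gbp3, chr3:142559979-142560034, plus strand: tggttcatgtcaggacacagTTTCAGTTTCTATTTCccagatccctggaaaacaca
Igtp, chr11:58199491-58199551, plus strand: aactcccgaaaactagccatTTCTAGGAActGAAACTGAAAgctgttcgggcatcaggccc
Ifit3, chr19:34583353-34583436, plus strand: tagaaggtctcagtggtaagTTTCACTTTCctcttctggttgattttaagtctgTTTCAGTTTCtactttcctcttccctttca
Irgm2, chr11:58214882-58214942, plus strand: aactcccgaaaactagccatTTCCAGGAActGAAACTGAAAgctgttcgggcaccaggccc
Irf1, chr11:53769904-53769952, plus strand: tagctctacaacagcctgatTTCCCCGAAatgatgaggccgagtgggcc
Isg15 has 3 overlapping matches in a row, and Ifit3 has 2 matches apart from each other. The stretches of Igtp and Irgm2 are the same at 59 of 61 bases, and each holds both motifs side by side. Of the measured genes, 4 hold TTCNNNGAA alone, and their adenovirus differences were 0.33 for Irf1, 0.38 for Psmb8, 1.80 for Ifit2 and 1.84 for Eif2ak2. Tap1 and Psmb9 are read away from each other on chromosome 17 with starts 226 bases apart, and their adenovirus differences were 0.99 and 0.49.

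Other genes of the pathway were read from lists of their roles. Of 12 interferon genes listed, 1 passed the detection filter, Ifna1, with a difference of -0.00 between adenovirus and tamoxifen wounds. Its log2 signals, 5.69 to 6.26, lay near the lowest detected signals (mean 6.01 on the tamoxifen arrays), so this difference shows little. Ifnb1 and Ifng did not pass. Of 6 receptor genes, 5 were measured, 3 of them higher and 0 called. Of 8 measured kinases, STATs and interferon regulatory factors beyond those above, 7 were higher and 1 was called. That gene was Jak2, a kinase of the interferon gamma receptor and of many cytokine receptors, at 10.41 and 10.50 in the adenovirus wounds against 9.62, 9.39, 9.70 and 9.62 in the tamoxifen wounds (difference 0.87 ± 0.13, adjusted p = 0.0312). Of 8 measured sensors and adaptors upstream of interferon, 7 were higher and 0 were called. Of 7 measured inhibitors, 4 were higher and 1 was called, Socs3, which blocks Janus kinases after cytokine signals (1.17 ± 0.18, adjusted p = 0.0322). Of 10 other genes of MHC class I and its proteasome, 9 were higher, with a median of 0.31, and 0 were called.

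Markers of other cells were read beside this difference. T and NK cell markers were higher in the adenovirus wounds for 7 of 7 measured genes (median 0.57, 0 called). Prf1, the gene of perforin, made up most of their summed signal on the GFP array. Without Prf1 the other 6 markers summed to 1569 (stabilized) and 2415 (GFP) on the adenovirus arrays, against 1724 and 1872 on the knockdown arrays and 965.9 and 856.9 on the tamoxifen control arrays. With it the sums ranged from 1800 to 9046 on the adenovirus arrays and from 1897 to 2442 on the tamoxifen arrays. Cd4, Cd8a and Ncr1 did not pass the detection filter. Macrophage markers were lower for 8 of 9, with the ninth, Fcgr1, called higher (1.12 ± 0.16, adjusted p = 0.0266). Fcgr1 encodes an Fc receptor that interferon gamma also induces. Neutrophil markers were higher for 7 of 8 (median 0.52) and endothelial markers for 7 of 7 (median 0.56), with 0 called in either list. The higher neutrophil values lay mostly on the GFP array, where the median difference from each marker's mean over the 6 arrays was 1.23. That median was -0.345 on the stabilized array and -0.347 to 0.078 on the tamoxifen arrays. Skeletal muscle markers were lower for 9 of 9, with a median of -1.07, and at least 2-fold lower for 7 of them (0 called). Their summed signal was lowest on the stabilized array, at 10370, and was 42970 on the GFP array. It was 69930 and 97040 on the knockdown arrays and 28920 and 43130 on the tamoxifen control arrays. Against the tamoxifen controls alone, the GFP wound was higher for 8 of 9 muscle markers (median 0.39). Of 5 measured markers of plasmacytoid dendritic cells, a main source of type I interferon, 2 were higher, Siglech by 1.03 and Ly6d by 0.23. Siglech stood at 8.84 with GFP, 7.08 with stabilized β-catenin and 6.79 to 7.16 in the tamoxifen wounds. Cox6a2, with a difference of -1.38, ranked the 6 arrays in the same order as the summed muscle signal. Whether this list is specific in a skin wound was not tested, so its count says little about these cells. The part of any of the cell types above in the difference was not tested.

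Within the tamoxifen system, the comparison asked what lowering β-catenin does. The interferon-stimulated genes tended to be lower in the knockdown wounds than in the tamoxifen controls, by small amounts, and none was called. Of the 39 genes, 32 had a negative difference (82.1%), against 46.7% of all genes, and the median was -0.33, against 0.02 over all genes. limma called 0 of the 39 genes and 0% of all genes at an adjusted p under 0.05. At an unadjusted p under 0.05, 8 of the 39 were lower, against 4.4% of all genes, and 3 were higher, against 6.24% of all genes. The 2 knockdown arrays lay below both controls for 18 genes, against 18.8% of all genes, and above both for 4, against 24.8%.

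The lower values were mostly those of genes best known for type I interferon. Of these, 25 of 27 were lower, with a median of -0.44, while 5 of the 10 genes best known for interferon gamma were lower, with a median of 0.00. This contrast between classes was not tested. Oasl1, which in mice restrains translation of Irf7, had 7.95 and 7.81 in the knockdown wounds and 8.45 and 8.74 in the tamoxifen controls (difference -0.71 ± 0.16, adjusted p = 0.252). The groups did not overlap, and its other kept probes differed by -1.03 and -1.01. Oasl2, a relative with ubiquitin-like domains, had 10.68 and 10.47 in the knockdown wounds and 11.05 and 11.16 in the controls (-0.53 ± 0.15, adjusted p = 0.331).

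Dhx58 had 8.29 and 8.02 in the knockdown wounds and 8.78 and 8.70 in the controls (-0.58 ± 0.15, adjusted p = 0.311). Irgm1 had 12.52 and 12.61 in the knockdown wounds against 13.13 and 13.05 in the controls (-0.52 ± 0.13, adjusted p = 0.28), and Mx2 differed by -0.48 ± 0.17 (adjusted p = 0.443). With the probe used, the knockdown arrays lay below both controls in each of these genes. The other kept Irgm1 probe differed by only -0.25, with 8.94 and 8.86 against 8.93 and 9.38, so its groups overlapped. For others the controls themselves were far apart. Ifit3 had the most negative difference, -0.83, yet its controls stood at 11.06 and 12.12 (SE 0.38). Rsad2 stood at 10.80 and 10.39 in the knockdown wounds against 10.37 and 11.70 in the controls, so its groups overlapped.

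A few genes ran the other way. Oas1d, a synthetase relative, had the smallest unadjusted p of the 39 genes, 0.00107, and an adjusted p of 0.191. Its log2 signals were 7.54 and 7.68 in the knockdown wounds and 6.41 and 6.67 in the tamoxifen controls, a difference of 1.07 ± 0.16. It is a dim probe, with deposited intensities of 308.4 and 311.9 in the knockdown wounds and 196.3 and 200.6 in the controls. Cxcl9 was higher by 0.55 ± 0.15 (adjusted p = 0.324), while Cxcl10, which acts on the same receptor, differed by -0.70 ± 0.35. Psmb9 stood at 10.80 and 10.85 in the knockdown wounds against 10.33 and 10.32 in the controls (0.50 ± 0.13, adjusted p = 0.284), and Psmb8 and Tap1 also had positive differences, 0.36 and 0.10. Of the 10 other genes of MHC class I and its proteasome, 9 were higher, with a median of 0.19.

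The second tamoxifen control carried part of the median. It was above the first control for 66.7% of the 39 genes, and at least 2-fold above it for 4 of them (Rsad2, Cmpk2, Ifit2 and Ifit3, 10.3%), against 1.8% of all genes. The second knockdown array was below the first for 82.1% of the 39 genes. Without tamoxifen control 2 the median was -0.18 and 11 genes were higher; without knockdown 2 it was also -0.18. T and NK cell markers were higher in the knockdown wounds for 6 of 7 measured genes (median 0.96), and 9 of 9 skeletal muscle markers were higher (median 1.36). The summed muscle signal was 69930 and 97040 on the knockdown arrays and 28920 and 43130 on the control arrays. Their part in the differences above was not tested, and age went with genotype in this comparison.

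**Figure D3:**
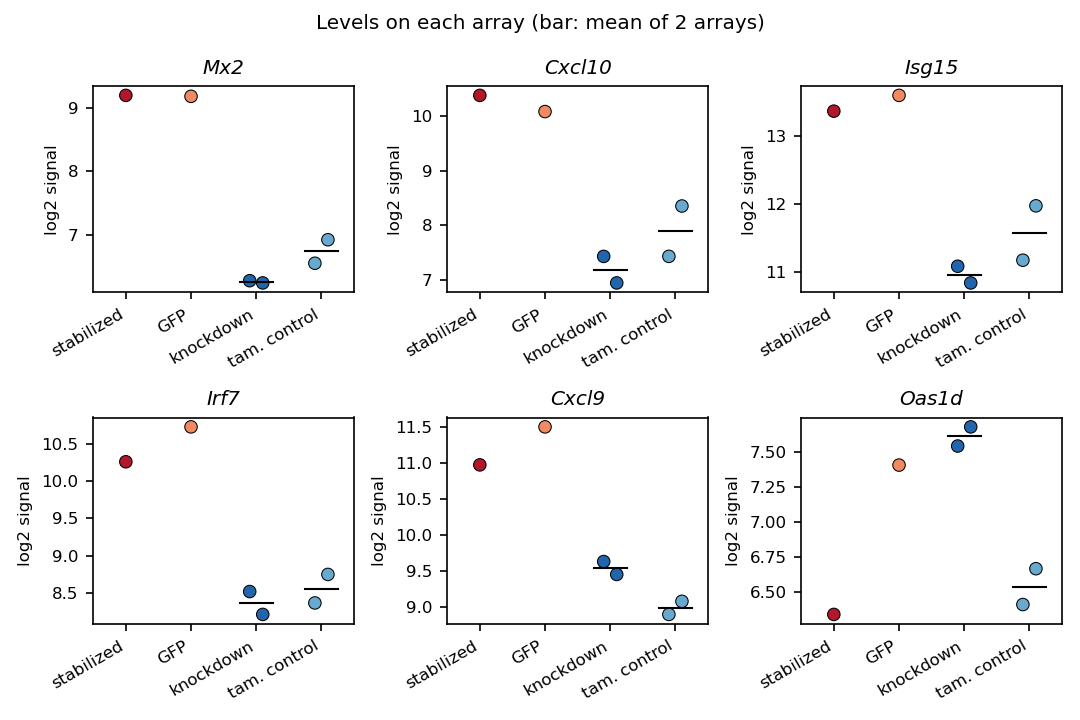
Log2 signal of 6 interferon-stimulated genes on each array (points) in the stabilized, GFP, knockdown and tamoxifen control wounds, with bars at the mean of 2 arrays; each panel has its own scale, which does not start at 0. Mx2, Cxcl10, Isg15, Irf7 and Cxcl9 stand higher on the 2 adenovirus arrays than on all 4 tamoxifen arrays, while Oas1d is high on the GFP and knockdown arrays, between 7.41 and 7.68.

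Stabilized β-catenin was set against GFP with 1 array each, so differences have no replicate check and no test. The genes showed no common direction. Of the 39, 22 were higher and 17 lower in the stabilized wound, with a median log2 difference of 0.11, against 0.04 over all genes. With the brightest probe of each gene, at least a 2-fold difference was seen for 1 gene, Oas1d, which was lower. Of all genes, 4.22% were lower and 3.21% higher by that much. Oas1d stood at 6.34 in the stabilized wound and 7.41 in the GFP wound, a difference of -1.07.

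The next largest differences had mixed signs. Cmpk2 (9.85 stabilized, 10.65 GFP), Rsad2 (12.13 stabilized, 12.79 GFP) and Oasl1 (9.77 stabilized, 10.40 GFP) were lower in the stabilized wound. Irgm2 (11.93 stabilized, 11.19 GFP), Eif2ak2 (12.39 stabilized, 11.76 GFP) and Lgals3bp, a secreted glycoprotein (13.66 stabilized, 13.02 GFP), were higher. All 6 of these genes were higher in both adenovirus wounds than in any tamoxifen wound. Irgm1 was lower by 0.70 in the stabilized wound with its brightest probe, but its other kept probe was higher by 0.46. A second Ifit3 probe stood at 9.93 in the stabilized wound and 8.81 in the GFP wound, a difference of 1.125. The Ifit3 probe used differed by 0.11. For Usp18 the probe used differed by -0.16 and the other by 0.66. Of the 16 further kept probes, 7 had the sign of the probe used in this comparison, and 15 had it in the knockdown comparison.

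Markers of other cells were read in these 2 wounds too, and their part in the differences above was not tested. Neutrophil markers were lower in the stabilized wound for 7 of 8 genes (median -1.60), skeletal muscle markers for 9 of 9 (median -1.92), and T and NK cell markers for 7 of 7 (median -0.67). The summed T and NK cell signal was 1800 in the stabilized wound and 9046 in the GFP wound, and without Prf1 it was 1569 and 2415, as Prf1 alone stood at 7.85 in the stabilized wound and 12.70 in the GFP wound. Oas1d had opposite signs in the β-catenin comparisons, 1.07 in the knockdown and -1.07 in the stabilized wound. Without background correction these were 0.60 and -0.56, so the 2-fold difference between the stabilized and GFP wounds was lost. Its signal in the stabilized wound was close to those of the tamoxifen controls.

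**Figure D4:**
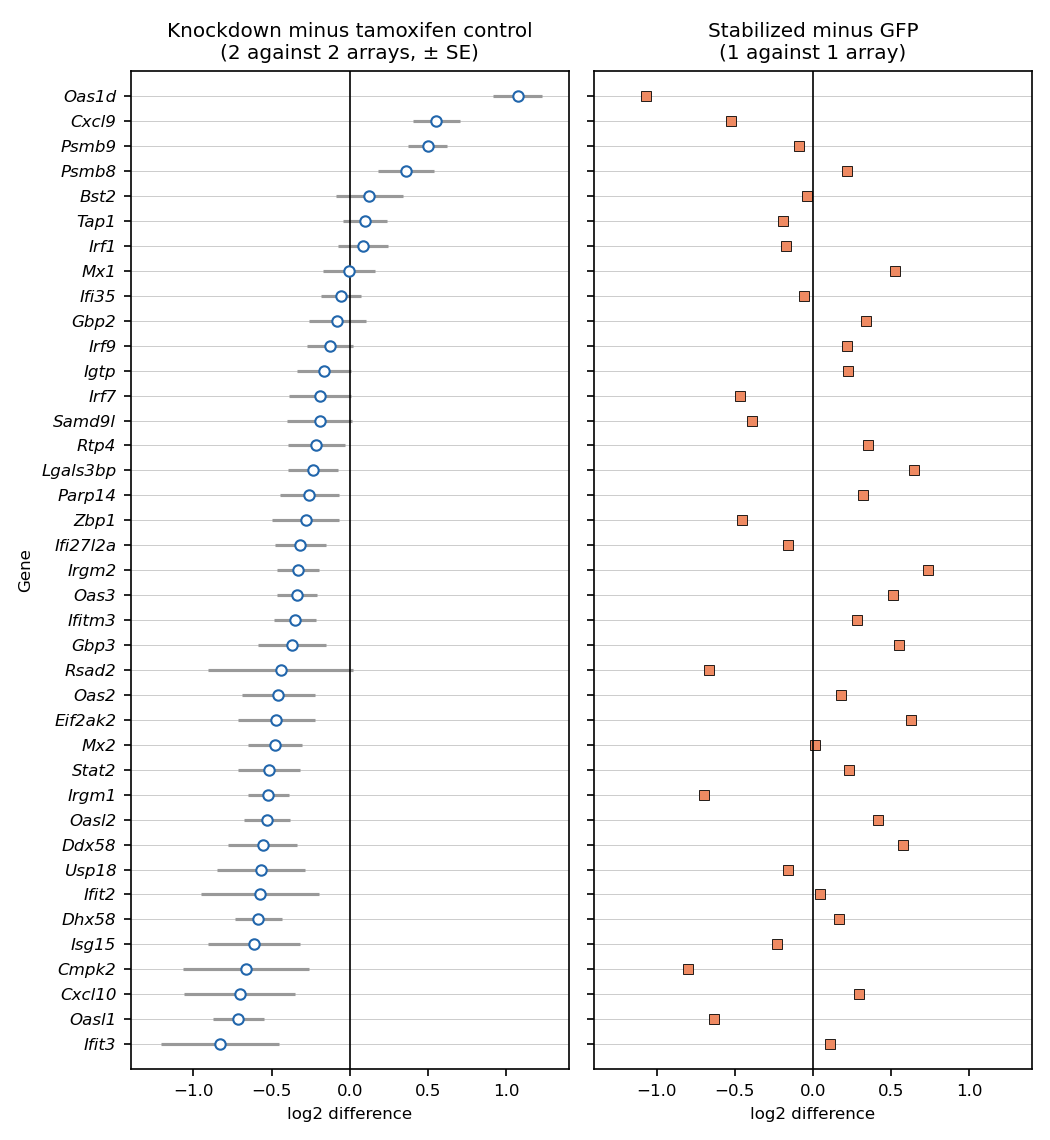
Log2 difference of each of the 39 genes between knockdown and tamoxifen control wounds (left, 2 against 2 arrays, bars of 1 standard error) and between the stabilized and GFP wounds (right, 1 against 1 array, no error). On the left 32 genes lie below 0 with a median of -0.33; on the right 22 lie above 0 and 17 below, with a median of 0.11.

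The remaining genes had too little signal to compare. Ifih1, the RNA sensor MDA5, had a lowest detection p-value over the arrays of 0.0652, Ifit1 of 0.384, Iigp1 of 0.0353 over 4 probes, Parp9 of 0.031 and Xaf1 of 0.0876. Oas1a, an active synthetase, was detected on the stabilized array alone, with a detection p-value of 0.00748. A probe below the threshold does not show that a gene was silent, since a probe may bind poorly. Whether the probes of close relatives, such as the Oas1, Ifit3 and Irgm genes, also bind the other copies was not examined.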

How the data were processed

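Illumina bead arrays with 1 colour were used, 1 for each of 6 mouse wounds. Per the file headers, the deposited probe table lists average bead signals, a linear intensity that is not normalized between arrays, and beside each of them a detection p-value. The authors' other table has log2 values, and the submitters' processing notes name R 2.14 and limma. Its columns ranked the probes as the intensities did (Spearman correlation 1), had medians of 5.12 and differed by at most 0.101 from the values computed here; the sources used here do not say how its background was set. No sample column was left out.

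Values were computed with limma 3.58.1 in R 4.3.3: neqc background correction with the detection p-values, offset 16, log2 and quantile normalization, which removes a shift shared by most genes. The offset shrinks differences of dim probes. Probes with a detection p-value under 0.01 on at least 2 of 6 arrays were kept (17410 probes, 10266 genes, brightest probe per gene). Of 45281 probes, 34885 had 1 gene in the platform annotation, 18 had several and 10378 were not listed; 34807 were matched to RefSeq (GRCm38.p6).

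Tests were two-sided, by lmFit and eBayes with Benjamini-Hochberg adjustment over all kept genes. Adenovirus against tamoxifen used 2 system means (4 residual and 2.59 prior degrees of freedom), and the knockdown used the means of all 4 groups (2 and 2.9). With 2 or fewer arrays a group, their number limits the precision. "At least" folds set the bright group's mean against, on each dim array, that array's lowest detected signal, or the signal of the probe itself where that was larger.

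The 46 genes, the pathway and marker lists and the tests were chosen with earlier results of these data known. Genes described array by array are the 8 with the smallest p in each tested comparison, the 8 largest differences in the pair and the brightest of each role. Isg15, Cxcl10, Rsad2, Ifit3 and other genes outside a comparison's set were added where a result turns on them. So were pathway and marker genes, further probes of Irf1, Irf9, Irgm1, Ifit3, Usp18 and Zbp1, and the Ifngr2 probe. All of these were added after their values were seen. Steps were tested on simulated data.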

Additional observations from a re-analysis of the deposited data

How the results depend on the processing

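Between adenovirus and tamoxifen wounds the median log2 difference of the interferon-stimulated genes was 1.24 with all arrays, 1.06 without background correction, 1.09 without a detection filter and 0.97 between the control groups alone. Leaving out 1 array gave 1.11 to 1.35, with 4 to 22 of them called higher, 0 called lower, 38 to 39 higher, and 69 to 420 genes called in all, against 221 with all arrays. With detection required on all 6 arrays 144 genes were called in all, with the means of the 4 groups 432, and between the controls alone 109, of which 4 were interferon-stimulated. In the knockdown the median ran from -0.39 to -0.18 with 1 array left out, with 7 to 11 of the genes higher, and 0 to 3 genes called in all. In the stabilized wound the number at least 2-fold apart was 0 without background correction, 0 with a normexp offset of 50 and 2 with the mean of all kept probes; Oas1d then differed by -0.56 and -0.69 under the first pair of settings. For pairing, the knockdown and control wounds share only a number: the deviations of same-numbered arrays correlated at 0.04 over 10266 genes, from 2 pairs. With the replicate block 0 genes were called in the knockdown, and between adenovirus and tamoxifen wounds 47 genes were called in all, of which 1 was interferon-stimulated, with a median of 1.23.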

Other observations

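A second probe of Zbp1, and the brightest probe of Ifngr2, a chain of the interferon gamma receptor, set the stabilized and GFP wounds far apart. The second Zbp1 probe stood at a log2 signal of 9.66 in the stabilized wound and 5.70 in the GFP wound, a difference of 3.96, while the Zbp1 probe used above differed by -0.45. In the tamoxifen wounds that second probe stood at 7.13 and 6.80 in the knockdown and 5.74 and 6.10 in the controls. Ifngr2 stood at 8.99 in the stabilized wound and 12.32 in the GFP wound, against 9.72 and 9.82 in the knockdown and 10.40 and 10.05 in the tamoxifen controls. The cause of these differences was not tested.

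Krt1, a keratin of the differentiated epidermis, was called lower in the adenovirus wounds, at 12.74 and 12.83 against 13.79, 13.62, 13.62 and 13.93 in the tamoxifen wounds (difference -0.96 ± 0.14, limma adjusted p = 0.0272). Over the 10 keratinocyte markers, 5 were higher and 5 lower.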
